A study of Rattus norvegicus with 6 samples.

Results

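The genes described here are the TGF-beta ligands, receptors and latent binding proteins, 10 genes chosen by name: the ligands Tgfb1, Tgfb2 and Tgfb3, the receptors Tgfbr1, Tgfbr2, Tgfbr3 and Eng, and the latent binding proteins Ltbp1, Ltbp2 and Ltbp3. All 10 were found among the 17525 genes measured in cultured ovarian granulosa cells, which line the follicle around the oocyte. The cells came from ovaries of SD rats that were 21 days old when injected with 60 IU of PMSG, a gonadotropin that stimulates follicle growth, and the ovaries were taken 48 h later. By their titles, 3 libraries are ATR and 3 are Control. Long-term atrazine, a herbicide, is the subject of the series' title, yet ATR is nowhere spelled out in the labels. They give no dose or duration and do not say whether animals or cultures received the agent. All values below belong to the ATR group, as ATR 1, ATR 2 and ATR 3. Control libraries are not analysed here, and nothing below measures what the agent did. Whole ovaries were minced, digested, sieved and cultured in medium with serum, and the design text describes no sort of cells.

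TGF-beta is secreted as an inactive complex. Its propeptide stays wrapped around the growth factor and is joined to a latent TGF-beta binding protein, which anchors the complex in the matrix until integrins, proteases or thrombospondin release it. The freed dimer binds TGFBR2, which phosphorylates TGFBR1, and TGFBR1 phosphorylates SMAD2 and SMAD3. Betaglycan (Tgfbr3) and endoglin (Eng) are co-receptors that present ligands. In the ovary betaglycan also binds inhibin, and TGF-beta is best known in fibrosis for raising the synthesis of collagen and other matrix proteins.

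The libraries held 18677212 to 19170552 reads assigned to genes. Levels are in TPM, a share of all transcripts, which is scaled for transcript length and so allows genes to be compared with each other. The labels do not say whether the 3 libraries came from separate animals or cultures, so their spread may be technical. Of the granulosa markers, Gja1 averaged 1906 TPM, Inha 443 TPM, Gata4 189 TPM and Foxl2 55.1 TPM. Fshr, the receptor stained to identify the cells, averaged 5.80 TPM, while Cyp19a1 (aromatase) and Amh, both defining genes of follicular granulosa cells, stayed at or below 0.14 TPM in every library. Markers of surface epithelium summed to 2266 to 2387 TPM, led by Upk3b, a uroplakin of mesothelium, at 1403 TPM. In that list Krt19, Muc16 and Epcam averaged 0.137, 0.167 and 0.333 TPM. Leukocyte markers summed to 101 to 125.4 TPM, led by Lyz2 at 74.0 TPM, with Ptprc at 0.85 TPM. The largest marker sum was that of smooth muscle and pericytes, 16367 to 17708 TPM, led by Tagln at 10890 TPM and Acta2 at 5496 TPM. Stromal fibroblast markers summed to 618 to 652 TPM. The part of other cell types in the levels below was not tested.

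All 10 genes had a mean of at least 1 TPM, which 71.4% of all genes reached. Of the 10, 6 averaged at least 100 TPM, against 10.7% of all genes. Their median was 126 TPM, beside 10.1 TPM over all 17525 genes. The 10 genes together summed to 2099 TPM in ATR 1, 1912 TPM in ATR 2 and 1963 TPM in ATR 3. In the order of mean TPM, Tgfb3 led, followed by Tgfb2, Ltbp2, Ltbp1, Ltbp3, Tgfb1, Tgfbr2, Tgfbr1, Eng and Tgfbr3. All 9 pairs of neighbours in this order kept it in each library, with a mean log2 ratio above its SD over the libraries. No test of these pairs was run. The narrowest steps were that of Ltbp3 over Tgfb1, between 1.14 and 1.44 times, and that of Ltbp1 over Ltbp3, between 1.20 and 1.45 times.

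**Figure D1:**
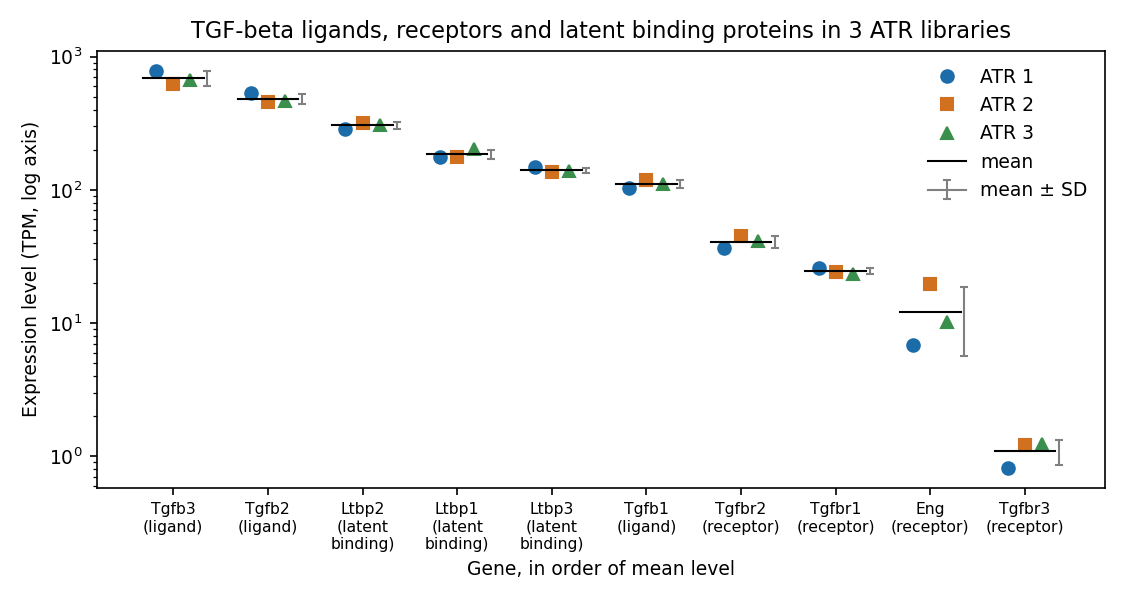
Level of each gene in TPM (log axis) in the 3 ATR libraries. Symbols are libraries, the horizontal line is the mean of the 3, and the grey bar beside it is the mean ± SD. The means run from 690.1 TPM for Tgfb3 to 1.09 TPM for Tgfbr3, and the points of a gene lie close together except for Eng and Tgfbr3.

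The 3 ligands are made from separate genes and signal through the same receptors. The 250 bases before the annotated start of each ligand gene are shown because Tgfb2 and Tgfb3 were highest in ATR 1 and Tgfb1 was lowest there, beyond counting error. None of the 3 varied beyond the spread that is usual for all genes, by the test described below. They are RefSeq sequences of the rat build GRCr8, at chr1:90324062-90324311 (plus strand) for Tgfb1, chr13:100792686-100792935 (minus strand) for Tgfb2 and chr6:111456947-111457196 (minus strand) for Tgfb3. The deposited values rest on another build, so the start used there may differ. Capitals mark matches to the motifs described after them.
Tgfb1: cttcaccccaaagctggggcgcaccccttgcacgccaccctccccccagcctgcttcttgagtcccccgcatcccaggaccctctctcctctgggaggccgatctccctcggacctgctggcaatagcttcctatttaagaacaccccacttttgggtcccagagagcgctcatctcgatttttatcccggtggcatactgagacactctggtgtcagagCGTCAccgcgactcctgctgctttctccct
Tgfb2: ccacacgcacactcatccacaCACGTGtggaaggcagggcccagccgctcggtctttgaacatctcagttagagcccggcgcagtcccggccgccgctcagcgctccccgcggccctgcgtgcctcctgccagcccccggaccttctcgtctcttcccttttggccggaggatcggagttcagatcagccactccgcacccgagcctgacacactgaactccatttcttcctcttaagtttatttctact
Tgfb3: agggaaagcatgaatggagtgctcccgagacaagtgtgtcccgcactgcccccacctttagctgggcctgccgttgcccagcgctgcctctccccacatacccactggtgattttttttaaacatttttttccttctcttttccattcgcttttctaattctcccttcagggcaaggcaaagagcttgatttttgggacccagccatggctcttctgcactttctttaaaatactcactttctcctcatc

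Each window was searched on both strands for TATAAA (the TATA box core), GGGCGG (the GC box bound by SP1), TGACG (the core of the cAMP response element), TGANTCA (the AP-1 site), AAGGTCA (a nuclear receptor site), CACGTG (an E-box) and CAGAC (the SMAD box). The Tgfb1 window held the TGACG core once, on the opposite strand at base -30 from the start, a match present in 18.2% of 33469 rat promoter windows of this length. The Tgfb2 window held CACGTG once, at base -229, a match found in 5.59% of them. The Tgfb3 window held none of the 7 motifs, and at 48.8% G and C it lay below the median promoter at 51.2%. Tgfb1 had 60.0% and Tgfb2 61.6%. These are matches of letters, and nothing was measured at these sites.

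Tgfb3 was the most abundant ligand and the most abundant of the 10 genes. It stood at 784 TPM in ATR 1, 620.2 TPM in ATR 2 and 666 TPM in ATR 3, a mean of 690.1 ± 84.8 TPM (SD, n = 3), and ranked 234 among the 17525 genes. Tgfb2 stood at 531, 452 and 462 TPM in the same libraries, a mean of 482 ± 43.2 TPM, at rank 328. Both were highest in ATR 1 and lowest in ATR 2, and Tgfb3 exceeded Tgfb2 by 1.48, 1.37 and 1.44 times in ATR 1, ATR 2 and ATR 3. Tgfb1, the isoform best known from fibrosis and immune regulation, stood at 102, 119 and 111 TPM, a mean of 111 ± 8.52 TPM, at rank 1673. Its order of libraries was the opposite, lowest in ATR 1 and highest in ATR 2, though ATR 2 and ATR 3 did not differ beyond counting error.

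As shares of the summed ligand TPM, Tgfb3 made up 53.7 ± 1.64%, Tgfb2 37.6 ± 0.340% and Tgfb1 8.73 ± 1.42% (SD, n = 3). Tgfb1 held 7.21% of it in ATR 1, 10.0% in ATR 2 and 8.97% in ATR 3, whereas the Tgfb2 share stayed between 37.3% and 37.9%. Tgfb2 and Tgfb3 together exceeded Tgfb1 by 12.9 times in ATR 1, 8.99 times in ATR 2 and 10.2 times in ATR 3. The ligands summed to 1418 TPM in ATR 1, 1192 TPM in ATR 2 and 1239 TPM in ATR 3, so it was highest where Tgfb3 was highest.

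The latent binding proteins were all above 100 TPM. Ltbp2, a microfibril protein that, unlike the other members of its family, does not bind latent TGF-beta, was the most abundant. It stood at 286 TPM in ATR 1, 318 TPM in ATR 2 and 307 TPM in ATR 3, a mean of 304 ± 16.2 TPM, at rank 563. Ltbp1, which binds all the latent TGF-beta isoforms, stood at 177, 177 and 202 TPM in the same libraries, a mean of 185 ± 14.0 TPM, at rank 981. Its high library was ATR 3, and the other libraries did not differ beyond counting error, the reads of ATR 2 being 1.02 times those of ATR 1 (exact 95% interval 0.996 to 1.05). Ltbp3, which also binds the latent complex, stood at 147, 136 and 139 TPM, a mean of 141 ± 6.06 TPM, at rank 1335. It had the smallest coefficient of variation of the 10 genes, 4.31%.

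Ltbp1 is shown because its window held 2 of the TGACG cores, at bases -108 and -105, which overlap on opposite strands in the full palindrome TGACGTCA of the cAMP response element, with a SMAD box on the opposite strand at base -99. Ltbp1 was picked for these matches after the windows of all the genes were searched. The share of all windows that hold the full palindrome was not counted. The window lies at chr6:26177302-26177551 (minus strand), from RefSeq on GRCr8.
Ltbp1: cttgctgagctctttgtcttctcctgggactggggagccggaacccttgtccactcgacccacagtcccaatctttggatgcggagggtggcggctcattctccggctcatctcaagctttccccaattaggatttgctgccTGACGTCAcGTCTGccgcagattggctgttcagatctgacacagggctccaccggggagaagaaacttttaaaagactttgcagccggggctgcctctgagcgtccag

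Over the 10 genes, all of which matched a RefSeq window, the TGACG core was present in Tgfb1 and Ltbp1, beside 18.2% of all windows. The GC box was found in 5: Tgfbr1, Tgfbr2, Tgfbr3, Ltbp2 and Ltbp3. The GC box was present in 30.5% of all windows. The SMAD box, present in 42.9% of all windows, was found in Eng, Ltbp1 and Ltbp2. The TATA box core, the AP-1 site and the nuclear receptor site, present in 12.9%, 6.34% and 3.99% of all windows, were found in none of the 10.

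Ltbp4, the fourth gene of the family, is outside the 10 and was added after its values were seen. It was far lower, at 14.4 TPM in ATR 1, 19.1 TPM in ATR 2 and 16.9 TPM in ATR 3. Of the summed TPM of all 4 family genes, Ltbp2 held 47.0 ± 1.70%, Ltbp1 28.6 ± 1.55%, Ltbp3 21.8 ± 1.56% and Ltbp4 2.60 ± 0.318%. Counting the family genes whose proteins bind latent TGF-beta (Ltbp1, Ltbp3 and Ltbp4), ligand transcripts outnumbered them by 4.18 times in ATR 1, 3.59 times in ATR 2 and 3.47 times in ATR 3. Against Ltbp1, Ltbp2 and Ltbp3 the ratio was 2.32, 1.89 and 1.91. These are ratios of transcripts, and no protein was measured.

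**Figure D2:**
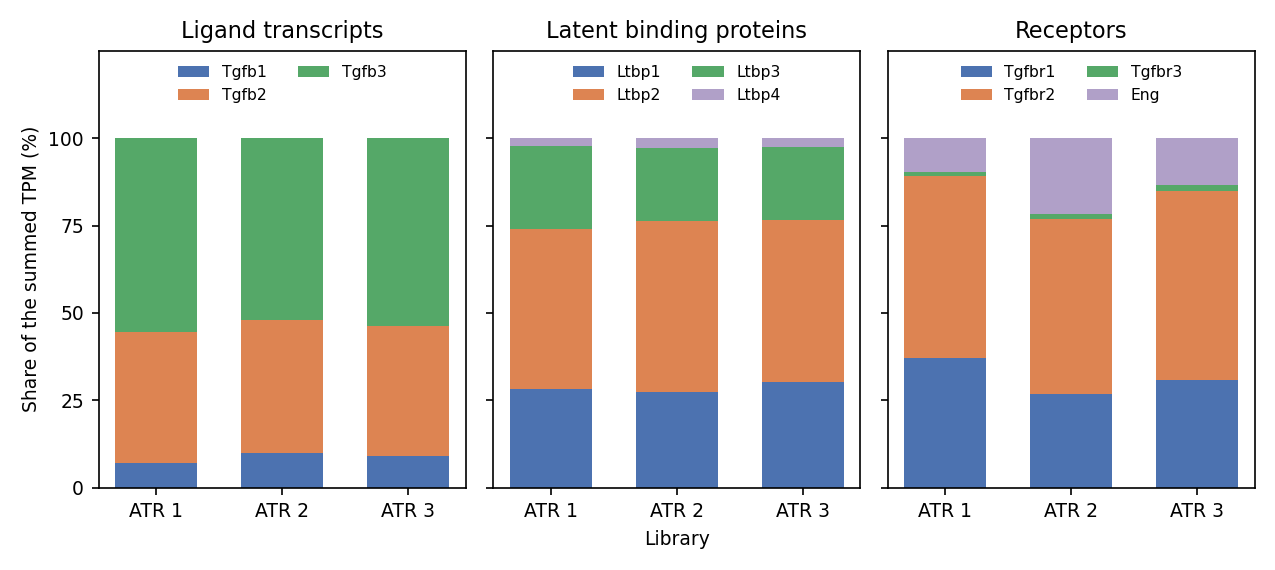
Shares of the summed TPM (in %) within the ligands, the 4 latent binding protein genes and the receptors, stacked to 100% for each ATR library. Tgfb3 holds 52.0% to 55.3% of the ligand sum in every library, and the Eng share of the receptor sum varies most, from 9.76% in ATR 1 to 21.8% in ATR 2.

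The receptors were lower than every ligand and latent binding protein of the set. Tgfbr2, the receptor that binds ligand first, stood at 36.6 TPM in ATR 1, 44.7 TPM in ATR 2 and 41.4 TPM in ATR 3, a mean of 40.9 ± 4.05 TPM, at rank 4158. Tgfbr1, the kinase that phosphorylates SMAD2 and SMAD3, stood at 26.0, 24.1 and 23.5 TPM, a mean of 24.5 ± 1.30 TPM, at rank 5915. Tgfbr2 exceeded Tgfbr1 in every library, by 1.41, 1.85 and 1.76 times. One Tgfbr1 count, that of ATR 2, is not a whole number, so reads shared with another gene can enter it. The 3 ligands summed to 22.7, 17.3 and 19.1 times the sum of Tgfbr1 and Tgfbr2 in ATR 1, ATR 2 and ATR 3.

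Tgfbr3, the inhibin and TGF-beta 2 co-receptor betaglycan, was close to the counting limit. It had 29 reads in ATR 1, 43 reads in ATR 2 and 45 reads in ATR 3, with exact 95% Poisson intervals of 19.4 to 41.6, 31.1 to 57.9 and 32.8 to 60.2 reads that overlap. Its level was 0.82, 1.21 and 1.24 TPM, a mean of 1.09 ± 0.234 TPM, at rank 12404. Tgfbr2 exceeded it by 33.4 to 44.6 times. By comparison Inha, the inhibin subunit whose dimers betaglycan presents, averaged 443 ± 73.0 TPM.

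Eng, the co-receptor endoglin, varied most among the 10 genes. It stood at 6.86 TPM in ATR 1, 19.5 TPM in ATR 2 and 10.2 TPM in ATR 3, from 171, 496 and 262 reads, a mean of 12.2 ± 6.53 TPM with a coefficient of variation of 53.6%. After scaling to library size, ATR 2 had 2.95 times the reads of ATR 1 (exact 95% interval 2.47 to 3.53) and 1.92 times those of ATR 3 (1.65 to 2.24). ATR 3 had 1.53 times those of ATR 1 (1.26 to 1.87). The next largest coefficient of variation was 21.5%, of Tgfbr3, and those of the other 8 genes lay between 4.31% and 12.3%. Among 3965 other tested genes within 2-fold of its mean read level, 99.0% had a smaller SD on the log2 scale than Eng. The window before its start is shown as that of the gene with the largest spread. It lies at chr3:36332029-36332278 (plus strand), from RefSeq on GRCr8, has 68.0% G and C, and holds the SMAD box CAGAC at base -19 and, on the other strand, at base -206.
Eng: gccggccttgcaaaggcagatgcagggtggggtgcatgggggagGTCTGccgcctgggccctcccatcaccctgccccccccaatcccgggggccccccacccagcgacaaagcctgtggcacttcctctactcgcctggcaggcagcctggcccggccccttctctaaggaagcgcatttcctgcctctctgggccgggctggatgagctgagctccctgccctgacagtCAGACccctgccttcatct

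The spread of each gene between the ATR libraries was tested against counting noise with a chi-square test of its reads over all genes, with Benjamini-Hochberg adjustment. The test compares libraries of a single group and not conditions. It called 8 of the 10 genes, beside 23.2% of the 13309 genes tested. Without ATR 1 it called 4 of the 10, beside 11.9% of all genes, and Tgfb1, Tgfb2, Ltbp2 and Ltbp3 no longer passed. The test calls more of the genes with many reads: it called 39.9% of genes with at least 3000 reads in all, where it called 7 of 8 of these genes, and 65.7% of genes with at least 10000 reads, where it called 5 of 5. The remaining genes did not pass, Tgfbr1 at adjusted p = 0.317 and Tgfbr3 at adjusted p = 0.300 by the same chi-square test. With the spread that is usual for all genes in the null, set by edgeR's common dispersion, the test called Eng alone, at adjusted p = 8.6e-12 over all genes, beside 3.26% of all genes. That call rested on ATR 2: with ATR 1 and ATR 3 alone the adjusted p of Eng was 0.208 in the same test.

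Scaled reads of ATR 1 over those of ATR 2 and ATR 3 pooled gave 1.19 for Tgfb3 (exact 95% interval 1.17 to 1.22) and 1.13 for Tgfb2 (1.11 to 1.15). The same ratio was below 1 for Tgfb1, at 0.867 (0.811 to 0.925), for Tgfbr2, at 0.857 (0.806 to 0.911), for Ltbp2, at 0.893 (0.877 to 0.910), and for Eng, at 0.447 (0.377 to 0.529). Ltbp1 gave 0.911 (0.890 to 0.933) and Ltbp3 1.05 (1.02 to 1.08). In Ltbp1, ATR 1 did not differ from ATR 2 beyond counting error, nor in Ltbp3 from ATR 3. Tgfbr1 gave 1.07 (0.997 to 1.14), within counting error. For Tgfbr3 the ratio was 0.654 (0.414 to 1.00), which at its few reads is not resolved. Thus ATR 1 was the high library for Tgfb3 and Tgfb2 and the low library for Tgfb1, Tgfbr2, Ltbp2 and Eng. For Tgfbr2, Ltbp2 and Eng the high library was ATR 2. Tgfb1 was also highest there, but its reads in ATR 2 were 1.07 times those in ATR 3 (0.993 to 1.15), within counting error.

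**Figure D3:**
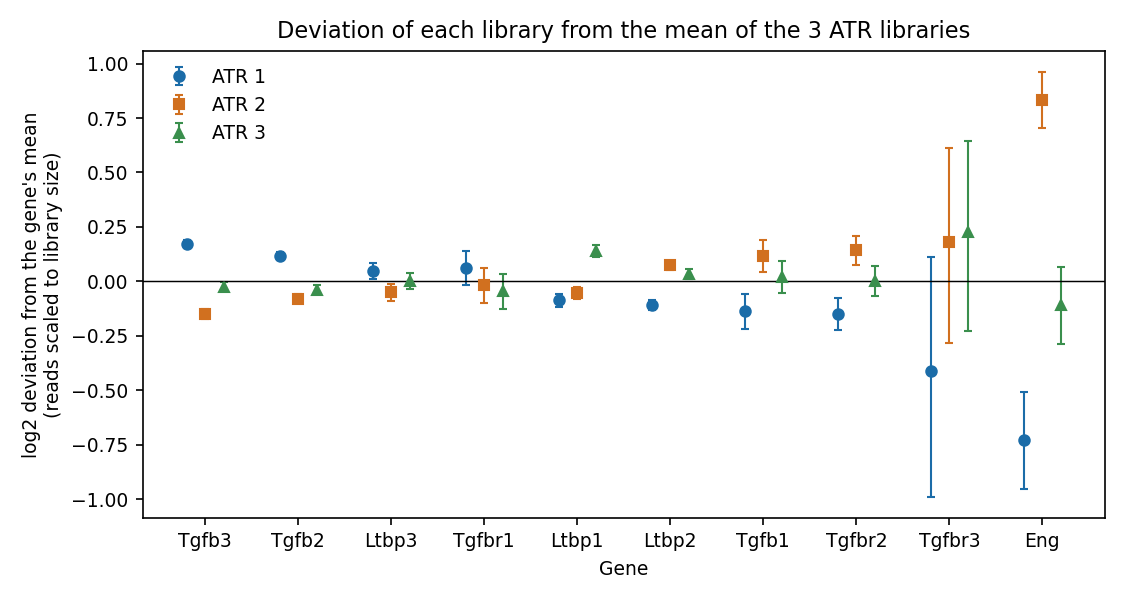
Log2 deviation of each ATR library from the mean of the 3, from reads scaled to library size. Bars are exact 95% Poisson intervals of the reads and cover counting error only. Tgfb3 and Tgfb2 lie above 0 in ATR 1, whereas Ltbp2, Tgfb1, Tgfbr2 and Eng lie below 0 in ATR 1 and above it in ATR 2.

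Eng is abundant in endothelium and is also made by activated fibroblasts and stromal cells. The 8 measured endothelial markers summed to 7.01 TPM in ATR 1, 6.59 TPM in ATR 2 and 7.76 TPM in ATR 3. Kdr and Esam, with means of 3.28 and 2.38 TPM, made up most of that sum. Neither varied beyond counting noise (chi-square test, adjusted p = 0.718 and 0.523). The defining endothelial genes Pecam1 and Cdh5 were listed at 0 in ATR 1 and at no more than 0.16 TPM in the other libraries. Of the 5 endothelial markers tested for spread, 1 was called by the chi-square test, a share near the 23.2% of all genes: Flt1, at 0.10, 0.40 and 0.53 TPM. Kdr stood at 3.55, 3.12 and 3.17 TPM.

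Of the 8 stromal fibroblast markers tested for spread, Thy1, Prrx1 and Pdgfra had the same order of libraries as Eng and the rest had other orders. How many of all genes share that order was not counted. Thy1 stood at 23.2 TPM in ATR 1, 104 TPM in ATR 2 and 82.7 TPM in ATR 3, the mesenchymal transcription factor Prrx1 at 12.0, 47.0 and 29.2 TPM, and the receptor Pdgfra at 1.36, 5.27 and 3.67 TPM. The list was not uniform: Col14a1 stood at 333, 267 and 305 TPM, Ogn at 204, 181 and 179 TPM, and Tcf21 at 0 to 0.37 TPM. Col15a1, with the largest spread of the list, stood at 4.70, 6.47 and 0.70 TPM. Lum stood at 14.8, 17.7 and 22.0 TPM and Dcn at 25.3, 22.8 and 21.2 TPM. Summed, the 9 measured markers came to 618, 652 and 643 TPM. Of the 8 tested, 4 were lowest in ATR 1, beside 4672 of all 13309 tested genes. Whether stromal or endothelial cells account for the Eng values was not tested. In bulk RNA more cells of a type and more RNA per cell cannot be told apart. Of the 9 smooth muscle and pericyte markers measured, 5 were highest in ATR 1 and 4 in ATR 2. Over all 13309 tested genes, 4518 were highest in ATR 1 and 4536 in ATR 2. Tagln stood at 11357, 10751 and 10563 TPM and Acta2 at 5853, 5282 and 5352 TPM. Mcam was also highest in ATR 1, at 222 TPM. Des (desmin) stood at 7.22, 20.4 and 7.69 TPM and Pdgfrb at 9.40, 17.4 and 12.2 TPM.

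**Figure D4:**
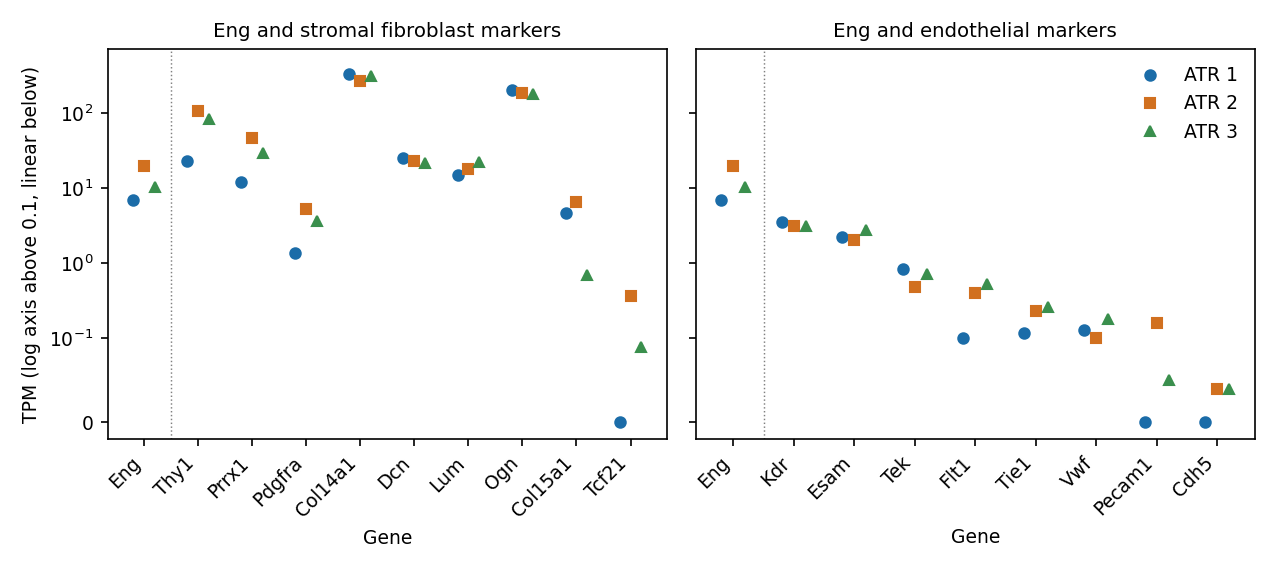
Levels in TPM (log axis above 0.1 TPM, linear below) of Eng beside the measured stromal fibroblast markers (left) and endothelial markers (right) in the 3 ATR libraries. Thy1, Prrx1 and Pdgfra share the order of libraries seen for Eng, and Col14a1, Dcn, Lum, Ogn and Col15a1 do not. Pecam1 and Cdh5 lie at or below 0.16 TPM.

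The genes that hold TGF-beta latent or release it were present at very different levels. Of 30 genes of this list, all measured, 26 had at least 1 TPM and 11 at least 100 TPM; the median was 28.6 TPM. Fn1 (fibronectin), to which latent complexes attach, averaged 3823 ± 177 TPM, Thbs1 (thrombospondin, an activator of the latent complex) 3607 ± 143 TPM and Bgn (biglycan, a proteoglycan that binds TGF-beta) 3232 ± 65.4 TPM. Mmp9, a protease able to release TGF-beta, stood at no more than 0.07 TPM. The largest spread was that of Lrrc32, which encodes GARP, a cell-surface anchor of latent TGF-beta, at 1.89 TPM in ATR 1, 8.03 TPM in ATR 2 and 4.92 TPM in ATR 3. Its scaled reads in ATR 2 were 4.38 times those in ATR 1 (exact 95% interval 3.35 to 5.81). Of the 27 genes tested, 17 varied beyond counting noise, beside 23.2% of all genes and 65.7% of those with at least 10000 reads, among which are Fn1, Thbs1 and Bgn.

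Integrins that contain the alpha V chain free TGF-beta by pulling on its propeptide, and the following genes were named after their values were seen. Itgav averaged 161 ± 7.41 TPM, and its partners were Itgb1 at 1136 ± 49.0 TPM, Itgb5 at 418 ± 4.22 TPM, Itgb3 at 16.8 ± 3.11 TPM and Itgb8 at 3.30 ± 0.121 TPM. The counts of Itgb1 and Itgb5 are not whole. Itgb6, the epithelial partner, stood at 0.607 ± 0.142 TPM. Furin, the protease that cuts the TGF-beta precursor, averaged 200.1 ± 8.62 TPM.

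Other receptors of the TGF-beta superfamily had a median of 14.3 TPM. All 10 measured genes had at least 1 TPM, and 1 had at least 100 TPM. That gene was Bambi, a pseudoreceptor without a kinase, at 141 TPM in ATR 1, 109 TPM in ATR 2 and 120 TPM in ATR 3. The BMP receptors Bmpr1a and Bmpr2 averaged 55.7 ± 3.93 and 52.1 ± 2.62 TPM, and Acvr2b was lowest at 1.33 ± 0.248 TPM. Acvrl1, the receptor kinase that works with endoglin in endothelium, stood at 1.33 TPM in ATR 1, 4.51 TPM in ATR 2 and 4.39 TPM in ATR 3. Its counts are not whole numbers, so reads of another gene can enter them. The chi-square test called 4 of the 10, beside 23.2% of all genes.

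All 18 SMAD genes and partners reached 1 TPM, with a median of 54.6 TPM, and 5 of the 18 (27.8%) varied beyond counting noise, a share near the 23.2% of all genes. Fkbp1a, which holds TGFBR1 inactive, averaged 565 ± 14.4 TPM, Strap 148 ± 3.12 TPM and Pmepa1, a feedback inhibitor, 121 ± 20.3 TPM. The receptor-driven transducers Smad2 and Smad3 and their partner Smad4, named after their values were seen, averaged 55.1 ± 1.38, 85.2 ± 3.89 and 54.1 ± 2.28 TPM. Smad9, a transducer of BMP signals, stood at 0 TPM in ATR 1, 2.93 TPM in ATR 2 and 0.20 TPM in ATR 3, from counts that are not whole. Among 21 other ligands and antagonists measured, 16 reached 1 TPM, and Inha, Inhba and Bmp4 led at 443 ± 73.0, 282 ± 1.92 and 270.3 ± 27.1 TPM. Tgfb3 and Tgfb2 were above all of these. Gdf9, an oocyte ligand, was at or below 0.07 TPM.

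Genes known to be raised by TGF-beta spanned a wide range of levels. All 30 had at least 1 TPM and 20 at least 100 TPM, beside 10.7% of all genes at 100 TPM. The list was chosen with earlier results of these data known, so its levels were not tested against those of all genes. The median was 168 TPM, and the list shares Ltbp2 with the 10 genes. Tagln, Acta2 and Fn1 led at 10890 ± 415, 5496 ± 311 and 3823 ± 177 TPM. Tagln and Acta2 are also smooth muscle and pericyte markers, and Fn1 is also in the latency list. Whether TGF-beta set these levels was not tested. Il11 was lowest at 2.66 ± 0.306 TPM. The transcription factor Snai1 varied most, at 5.19 TPM in ATR 1, 16.2 TPM in ATR 2 and 19.9 TPM in ATR 3. Of these genes, 21 varied beyond counting noise, beside 23.2% of all genes, 39.9% of those with at least 3000 reads and 65.7% of those with at least 10000 reads. In this list 17 of 30 were lowest in ATR 1, as were 12 of the 21 called. Over all 13309 tested genes, 4672 were lowest in ATR 1, as were 1207 of the 3087 called. Of the 10 genes themselves, 6 were lowest in ATR 1, Tgfb1, Tgfbr2 and the shared Ltbp2 among them. These 6 also include Tgfbr3, whose few reads do not allow its libraries to be ranked. They include Ltbp1 too, for which ATR 1 and ATR 2 did not differ beyond counting error. Tgfb3 and Tgfb2 were highest in ATR 1. A relation between targets and ligands was not tested.

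**Figure D5:**
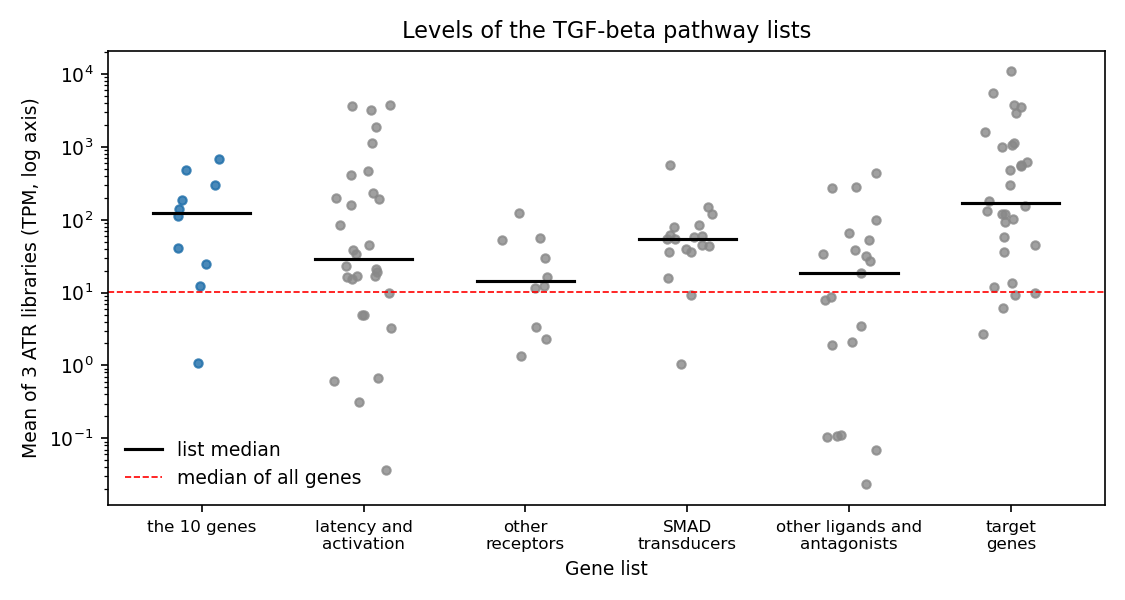
Mean TPM over the 3 ATR libraries (log axis) of each measured gene in the TGF-beta lists. Points are genes, black lines are list medians and the dashed line is the median of all 17525 genes at 10.1 TPM. The medians run from 14.3 TPM for the other receptors to 168 TPM for the target genes, with the 10 genes at 126 TPM.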

How the data were processed

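RNA of the ATR libraries was read by poly(A) selection and random priming, with no strand-marking step described, per the labels' protocols. The authors deposited a TPM value and an estimated count of reads per gene and library, per the file headers. Tools listed in the submitters' processing notes are StringTie 2.1.5, HISAT2 2.2.1 and fastp 0.20.1, with the builds Rnor_6.0 and GRCm38, and no source used here says which made which value. In each library 19.0% to 19.2% of the estimated counts were not whole (tolerance 0.001), and how shared reads were split is not stated.

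Estimated counts were rounded to whole numbers and scaled with TMM (edgeR 4.0.16, R 4.3.3). Genes with 30 or more reads over the libraries entered the chi-square test, and an adjusted p under 0.05 was a call. Its script was tested on simulated data. The SD on the log2 scale used log2(CPM + 0.5), CPM being reads relative to the TMM-scaled library. The common dispersion was estimated by edgeR with an intercept alone, on genes that filterByExpr kept at a minimum count of 10. DESeq2 1.42.0 gave alternative size factors. Intervals of read ratios are Clopper-Pearson and, like those of reads, cover counting error only, since molecules carry no identifiers.

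Symbols were matched as the table spells them, and Ccn1 was found as Cyr61 through its gene identifier. Gene lists held 174 genes, of which 165 were measured. In each list outside the 10 genes, the 3 with the highest mean TPM, the lowest, and the one with the largest SD at a mean of at least 1 CPM could be named, as could every marker. The members and lists were chosen with earlier results of these data known. The contrast of ATR with Control was not run because the Control libraries are not analysed here. Python 3.11.15, scipy 1.17.1 and matplotlib 3.10.9 were used.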

Additional observations from a re-analysis of the deposited data

How the results depend on the processing

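No paired analysis was possible because ATR libraries alone were analysed; the alternatives planned for ATR against Control were not run for the same reason. The count of 8 members varying beyond counting noise was also 8 with DESeq2 size factors, with library totals, with no filter, with at least 300 reads and with whole counts alone. It was between 4 (without ATR 1) and 7 with 1 library left out, where Tgfb1, Tgfb2, Ltbp2 and Ltbp3 no longer passed without ATR 1. Without ATR 1 the test has fewer libraries. With the common dispersion in the null it was 1. Leaving out a library under that null, which was added after seeing the data, gave 0 without ATR 2 and 1 without ATR 1 or ATR 3. The count over all genes, 3087, was 434 with the common dispersion, between 1528 and 2230 with 1 library left out, and 218 without ATR 1, 216 without ATR 2 and 277 without ATR 3 with both changes. The order of levels held for 9 of 9 neighbours. With 1 library left out 8 or 9 were apart. CPM, which is not scaled for length, gave another order, in which 6 of 9 neighbours were apart: Tgfb2 exceeded Tgfb3, and Tgfbr2 exceeded Tgfb1, in all 3 libraries. Of the 105 genes in the other pathway lists, which include the shared Ltbp2, 96 reached 1 TPM, 98 reached 0.5 TPM and 85 reached 5 TPM. At this depth the 29 to 45 reads of Tgfbr3 do not allow its libraries to be ranked.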
